A study of Mus musculus with 2 samples.

Results

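Chemokines and their receptors were described in fetal bone marrow as a family of 46 genes, 30 ligands and 16 receptors, out of the 22652 genes counted in the series. Members were found by symbol: every Ccl, Cxcl, Cx3cl and Xcl ligand and every Ccr, Cxcr, Cx3cr and Xcr receptor of the count tables, leaving aside Cxcl12 and Cxcr4. All 46 had at least 1 molecule in the WT library and 43 in the Bmx-CreER Wls library, and the 26 members with at least 30 molecules in all (18 ligands and 8 receptors) are named below with their values. The cells came from the femurs of C57BL/6 embryos at E18.5, crushed, digested with collagenase and depleted of lineage-committed blood cells. One library was made from WT embryos and 1 from Bmx-CreER Wls embryos, in which a tamoxifen-inducible Cre under control of Bmx, a gene of arterial endothelial cells, recombines floxed Wls, the carrier that Wnt proteins need to leave the cell. How many embryos were pooled, and whether the WT embryos received tamoxifen, was not given in the sources used here. With 1 library per genotype there is no replicate check, no difference between the libraries was tested, and all intervals are 95% intervals of counting error alone.

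Chemokines are small secreted proteins that bind G protein-coupled receptors and direct cells along a gradient. In bone marrow they retain or release haematopoietic stem and progenitor cells (HSPCs), call monocytes and neutrophils into and out of the tissue and act on osteoclast precursors. Most inflammatory ligands share receptors, so that Ccr1 answers several CC ligands and Cxcr2 several CXC ligands, while pairs such as Cx3cl1 and Cx3cr1 are private.

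Each molecule was counted by a unique molecular identifier (UMI), and a level is given as UMIs per 1000000 UMIs of a cell class (CPM). The WT library held 5736 kept cells with a median of 3128 UMIs, and the Bmx-CreER Wls library 6620 cells with a median of 3067. Both libraries were clustered together without any chemokine or receptor gene among the variable genes, so the classes do not rest on the members. Classes were named from marker lists, and each name ends in "-like" because it was rebuilt from markers. The 2 clusters led by the tendon genes Tnmd and Thbs4 stayed unnamed. The libraries shared 49 cell barcodes, 48 of them among kept cells, and leaving those out moved no highest class of a named member. Wls itself stood in endothelial-like cells at 43.6 CPM (35.0 to 53.7) in WT and 23.0 CPM (16.6 to 31.1) in Bmx-CreER Wls. It was also lower in Bmx-CreER Wls, with intervals that did not overlap, in stromal-like cells (238 and 190 CPM), osteolineage-like cells (412 and 309 CPM) and the unnamed clusters (227 and 171 CPM), and stood at 110 and 108 CPM in chondrocyte-like cells, so the lower level was not particular to endothelial-like cells. Since 3′ tags may also lie outside the deleted part of the gene, its level checks little. In bulk sums of a class, fewer producing cells and less RNA per cell cannot be told apart, and cells with a UMI are counted below where this matters.

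The promoters of 5 members are shown because their genes carry the patterns described here. They are Ccl9 and Ccr1, whose highest class was osteoclast-like, Ccl3, which marks a small HSPC-like group, and the neighbouring Cxcl1 and Cxcl2. Each is the stretch of 250 bases before the RefSeq start on GRCm38.p6, written 5′ to 3′ on the strand of the gene, namely chr11:83578637-83578886 (minus) for Ccl9, chr9:123968693-123968942 (minus) for Ccr1, chr11:83649379-83649628 (minus) for Ccl3, chr5:90890995-90891244 (plus) for Cxcl1 and chr5:90903649-90903898 (plus) for Cxcl2. Capitals mark matches on either strand to the TATA box TATAAA, to GGGA followed by any 4 bases and CC, a core of NF-kB sites, or to GAGGAA, a core of sites of the myeloid factor PU.1.
Ccl9: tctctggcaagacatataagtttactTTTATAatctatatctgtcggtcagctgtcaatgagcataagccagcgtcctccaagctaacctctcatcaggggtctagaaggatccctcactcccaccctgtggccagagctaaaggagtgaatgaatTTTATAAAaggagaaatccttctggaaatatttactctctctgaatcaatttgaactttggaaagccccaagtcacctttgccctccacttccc
Ccr1: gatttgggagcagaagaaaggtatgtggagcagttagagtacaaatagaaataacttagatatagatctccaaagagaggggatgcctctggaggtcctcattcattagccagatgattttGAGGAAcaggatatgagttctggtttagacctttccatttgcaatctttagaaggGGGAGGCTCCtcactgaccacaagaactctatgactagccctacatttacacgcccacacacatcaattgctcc
Ccl3: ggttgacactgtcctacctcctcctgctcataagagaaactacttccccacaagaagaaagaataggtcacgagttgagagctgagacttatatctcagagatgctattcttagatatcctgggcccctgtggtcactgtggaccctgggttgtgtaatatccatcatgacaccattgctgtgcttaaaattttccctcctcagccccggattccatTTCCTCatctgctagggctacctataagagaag
Cxcl1: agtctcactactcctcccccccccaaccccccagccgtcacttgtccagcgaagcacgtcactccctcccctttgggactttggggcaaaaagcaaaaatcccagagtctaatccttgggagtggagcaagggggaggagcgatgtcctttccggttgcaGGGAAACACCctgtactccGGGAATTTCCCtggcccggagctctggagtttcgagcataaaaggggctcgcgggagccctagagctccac
Cxcl2: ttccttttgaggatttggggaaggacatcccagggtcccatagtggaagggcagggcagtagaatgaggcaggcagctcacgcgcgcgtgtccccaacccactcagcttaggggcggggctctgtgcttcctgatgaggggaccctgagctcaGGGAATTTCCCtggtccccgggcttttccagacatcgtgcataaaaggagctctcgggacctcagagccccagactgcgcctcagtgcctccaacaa
Ccl9 held TATAAA, Ccr1 held 1 match each to the NF-kB-type motif and to GAGGAA, Ccl3 held GAGGAA, and Cxcl1 and Cxcl2 held the NF-kB-type motif. Overlapping matches run together in capitals. The promoters of Cxcl1 and Cxcl2 shared an unbroken run of 14 bases, gggaatttccctgg, that includes this match. Such short motifs are common: of 32851 promoters of the same length, 12.4% held TATAAA, 17.6% the NF-kB-type motif and 23.3% GAGGAA. Of 36 promoters matched to 32 members, 9, 15 and 12 held them. A match describes the letters of the window and nothing about binding.

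Transcripts of the member ligands were concentrated in few cells. Osteoclast-like cells were 2.95% of WT and 1.65% of Bmx-CreER Wls cells. They held 50.1% and 45.4% of the member ligand UMIs of their library. Cxcl12, left aside in these sums, had 4608 and 3269 UMIs over the kept cells, against 5449 and 4838 for the 30 member ligands together. Macrophage-like cells, 39 in WT and 49 in Bmx-CreER Wls, had summed ligand levels of 2846 CPM (2551 to 3166) and 2618 CPM (2370 to 2886). Summed ligand levels of osteoclast-like cells were 2103 and 2572 CPM, and those of HSPC-like cells 350 and 457 CPM. Mural-like cells reached 356 and 335 CPM, stromal-like cells 140 and 91.7 CPM and endothelial-like cells 101 and 98.5 CPM. Chondrocyte-like cells, the most numerous class, stood at 39.0 and 42.4 CPM, and erythroid-like cells were lowest, with 16 and 10 ligand UMIs in all. The summed receptor level was 1827 and 2360.5 CPM in macrophage-like cells, 406 and 342 CPM in osteoclast-like cells and 116 and 145 CPM in HSPC-like cells, and in no other class above 46.6 CPM. Chondrocyte-like cells nevertheless held 11.3% and 23.2% of the member receptor UMIs of their library, of which Cxcr5 accounted for 151 of 162 and 322 of 335.

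For 22 of the 26 named members the class with the highest level was the same in both libraries. It was macrophage-like for 7 ligands (Ccl2, Ccl3, Ccl4, Ccl6, Ccl7, Cxcl2 and Cxcl16) and for the receptors Ccr2, Cx3cr1 and Cxcr2 among others, osteoclast-like for Ccl9, Ccr1 and Ccr3, and HSPC-like for Ccl17 and Ccr9. Cx3cl1 and Ccl21a were highest in endothelial-like cells, Ccl11, Cxcl1 and Cxcr5 in mural-like cells, and Cxcl14 in the unnamed tendon-gene clusters. The highest class differed between the libraries for Ccl25, Ccl27a, Cxcl10 and Cxcl13. The macrophage-like class held so few UMIs that a single one amounted to several CPM. This bears on Cxcl10, highest there in WT on 4 UMIs and without a UMI there in Bmx-CreER Wls. It also bears on Cxcr2, highest there in WT on 3 UMIs, against 49 in HSPC-like cells. Without the highest Scrublet scores, or as a mean over cells, the highest WT class of Cxcr2 was HSPC-like. With 30 principal components Ccl3, Ccl4, Ccl17 and Ccr3 were highest in a mast and basophil-like class in both libraries.

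**Figure D1:**
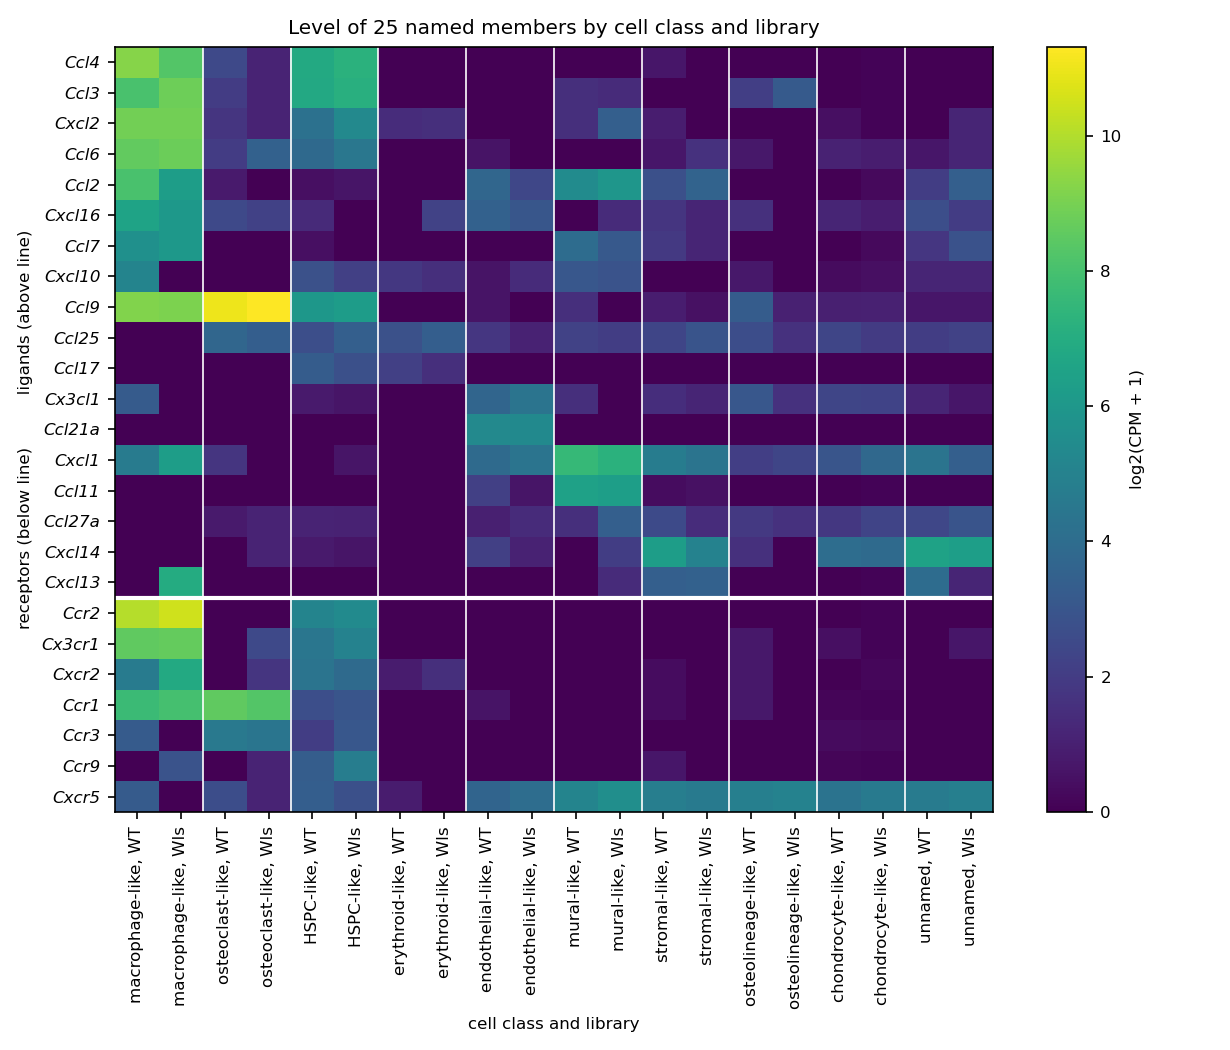
Level of 25 of the 26 named members (rows, ligands above the white line and receptors below) in each class and library (columns), coloured by log2(CPM + 1). The brightest cells are Ccl9 in osteoclast-like cells, 2068 CPM in WT and 2538 CPM in Bmx-CreER Wls, and receptors other than Cxcr5 are dark outside the blood cell classes.

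Osteoclast-like cells had the highest class levels of 1 ligand and its receptor. These cells resorb bone and cartilage, and all 8 osteoclast markers were detected in their cluster. Ccl9, a CC chemokine that attracts myeloid cells and acts on osteoclast precursors, had 2687 UMIs in them in WT and 2169 in Bmx-CreER Wls, which was 91.3% and 90.3% of all Ccl9 UMIs of the library. Its level was 2068 CPM (1991 to 2148) and 2538 CPM (2432 to 2647). Macrophage-like cells came next, with Ccl9 at 573 CPM in WT and 535 CPM in Bmx-CreER Wls. Nearly every osteoclast-like cell carried it: 165 of 169 WT cells and 101 of 109 Bmx-CreER Wls cells had a Ccl9 UMI, with medians of 13 and 14 UMIs per cell and maxima of 80 and 191. In chondrocyte-like cells, which should lack Ccl9, 0.339% and 0.343% of cells had a UMI, at median depths of 2859 and 2886.5 UMIs against 7170 and 7984 in osteoclast-like cells. With every cell thinned to 1000 UMIs, 78.2% and 72.9% of osteoclast-like cells still had a Ccl9 UMI, after 4 and 2 shallower cells were left out, against 0.130% of WT and 0% of Bmx-CreER Wls chondrocyte-like cells.

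Ccr1, which binds Ccl9 and several other CC chemokines, followed Ccl9 into this class. It had 487 and 267 UMIs, or 375 CPM (342 to 410) and 312 CPM (276 to 352), in 119 WT and 62 Bmx-CreER Wls cells. Of those cells 118 in WT and all 62 in Bmx-CreER Wls also had a Ccl9 UMI. Since 165 of 169 WT and 101 of 109 Bmx-CreER Wls cells of the class had Ccl9, this overlap says little about pairing. The pair was not particular to this class, since macrophage-like cells had Ccr1 at 211 CPM in WT and 252 CPM in Bmx-CreER Wls. Ccr3, best known as the eotaxin receptor of eosinophils, was lower, at 23.1 CPM (30 UMIs) and 19.9 CPM (17 UMIs). Of the cells with Ccr3, 22 of 24 in WT and 7 of 11 in Bmx-CreER Wls also had Ccr1. Over the whole class 119 of 169 and 62 of 109 cells had Ccr1. Ccl6, which lies beside Ccl9 on chromosome 11 and is close to it in sequence, was not co-detected to the same extent: 4 WT and 3 Bmx-CreER Wls osteoclast-like cells had a Ccl6 UMI.

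The osteoclast-like class split into 5 groups, and Ccl9 and Ccr1 did not follow the same order in them. Over both libraries Ccl9 was lowest in the group led by Col2a1 and Top2a, at 1578 CPM, and highest in the group led by Hnmt and Nrp1, at 2892 CPM, and in that led by Oscar and Itgb3, at 2637 CPM. Ccr1 reached 606 CPM in the Oscar and Itgb3 group, whose genes belong to differentiated osteoclasts. The higher Ccl9 level of the Bmx-CreER Wls library came from those same 2 groups, where its ratio to WT was 1.45 (1.30 to 1.62) and 1.62 (1.47 to 1.78). In the other 3 groups it was 1.03 (0.913 to 1.17), 1.04 (0.891 to 1.22) and 0.740 (0.523 to 1.05). Ccr1 showed no such split, with ratios from 0.821 to 1.08 in the 4 groups with enough UMIs. The Col2a1 and Top2a group also carried cartilage transcripts, whose part in these levels was not tested.

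**Figure D2:**
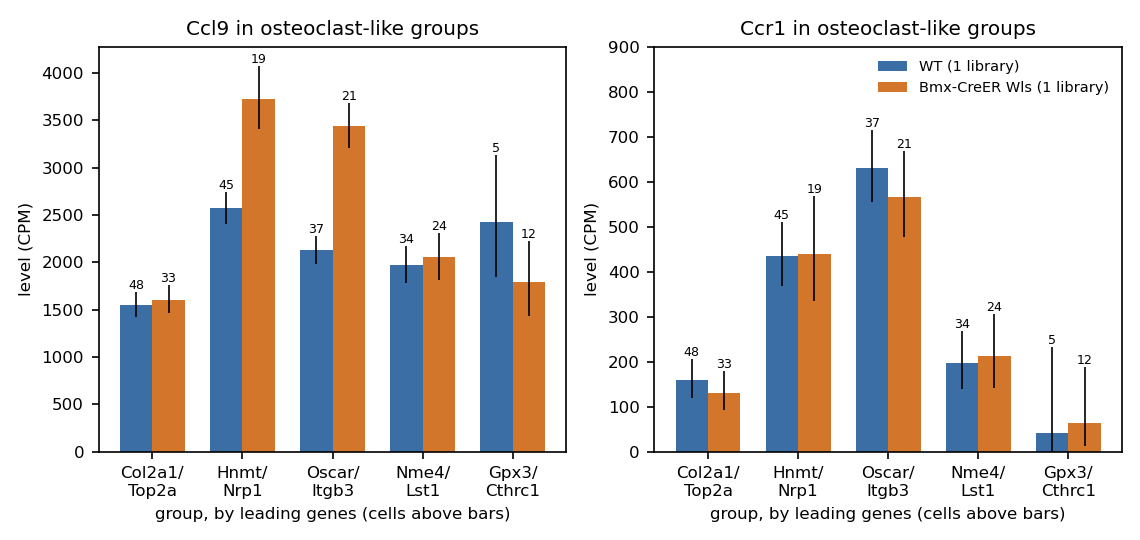
Levels of Ccl9 (left) and Ccr1 (right) in CPM in the 5 groups of osteoclast-like cells, by library, with 95% Poisson intervals as error bars and the number of cells above each bar. Ccl9 stood at 2570 CPM in WT and 3725 CPM in Bmx-CreER Wls in the Hnmt and Nrp1 group and at 2128 and 3437 CPM in the Oscar and Itgb3 group, while the Ccr1 bars of the libraries overlapped in their intervals.

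The macrophage-like class held 3 kinds of cells with different chemokines, and its composition differed between the libraries. The first group, 13 WT and 29 Bmx-CreER Wls cells, had no UMI of the macrophage genes C1qa, C1qb, C1qc and Mrc1 and was led by S100a8 and S100a9. Yet those genes, of neutrophils and monocytes, were found in 13 and 11 of the 29 Bmx-CreER Wls cells and in none of the 13 WT cells. All 6 mature neutrophil markers were at 0 in the WT macrophage-like class, and all 6 were present in that of Bmx-CreER Wls, at a summed 16588 CPM. The second group, 13 and 14 cells, was led by C1qc, Mrc1 and Lyve1, genes of resident macrophages, and every cell of it had a C1qc UMI. The last, 13 and 6 cells, had the antigen presentation genes H2-Ab1 and Cd74 together with cartilage transcripts such as Col2a1.

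Ccr2, the receptor that takes monocytes out of the marrow, belonged to the S100a8 and H2-Ab1 groups. The class had 125 Ccr2 UMIs in WT and 226 in Bmx-CreER Wls, or 1053 CPM (876 to 1254) and 1458 CPM (1274 to 1660). The first group held 74.1% of them, in 37 of its 42 cells, and the H2-Ab1 group 25.1%, in 17 of its 19 cells. Within the first group the level was 2199 CPM in WT and 2285 CPM in Bmx-CreER Wls, a ratio of 1.04 (0.785 to 1.39), and within the H2-Ab1 group 1699 and 1852 CPM, a ratio of 1.09 (0.688 to 1.71). The class ratio of 1.38 (1.11 to 1.74) was thus larger than the ratio within either group that held the receptor.

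The C1qc group held the ligands of tissue macrophages and the fractalkine receptor. It had 97.7% of the Ccl2 UMIs of the class, 85.4% of Cxcl2, 71.0% of Cx3cr1 and all UMIs of Ccl7, Cxcl1 and Cxcl13. The Cxcl13 UMIs of this group were all from Bmx-CreER Wls, where Cxcl13 stood at 123 CPM over the class. Cxcl1 over the class stood at 77.4 CPM in Bmx-CreER Wls and below 26.1 CPM in WT. Ccl2 and Ccl7 are ligands of Ccr2, of which this group held 3 UMIs, and Cxcl1 and Cxcl2 are the neutrophil attractants that bind Cxcr2. Some of these sums rested on single cells. Of the 32 WT Ccl2 UMIs of the class 24 came from 1 cell, and of the 56 WT Cxcl2 UMIs 40 came from 1 cell. Cx3cr1 was spread more evenly, with 45 UMIs in 16 WT cells and 62 in 23 Bmx-CreER Wls cells, at 379 CPM (276 to 507) and 399.9 CPM (307 to 513).

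The remaining ligands of the class were shared out differently. Ccl4 stood at 1356 CPM in the H2-Ab1 group, which held 56.7% of its UMIs in the class, and at 252 and 212 CPM in the S100a8 and C1qc groups. Ccl3, Ccl6 and Ccl9 were instead highest in the first group, at 600.1, 574 and 791 CPM. The receptor Ccr1 stood at 446 CPM in WT and 287 CPM in Bmx-CreER Wls there, and at 180 and 282 CPM in the C1qc group. Ccl6 was detected in 22 of 39 WT and 28 of 49 Bmx-CreER Wls cells of the class, and its level of 387 and 432 CPM differed by less than the counting interval. Cxcl16, the membrane-bound ligand of Cxcr6, had 11 and 10 UMIs there.

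**Figure D3:**
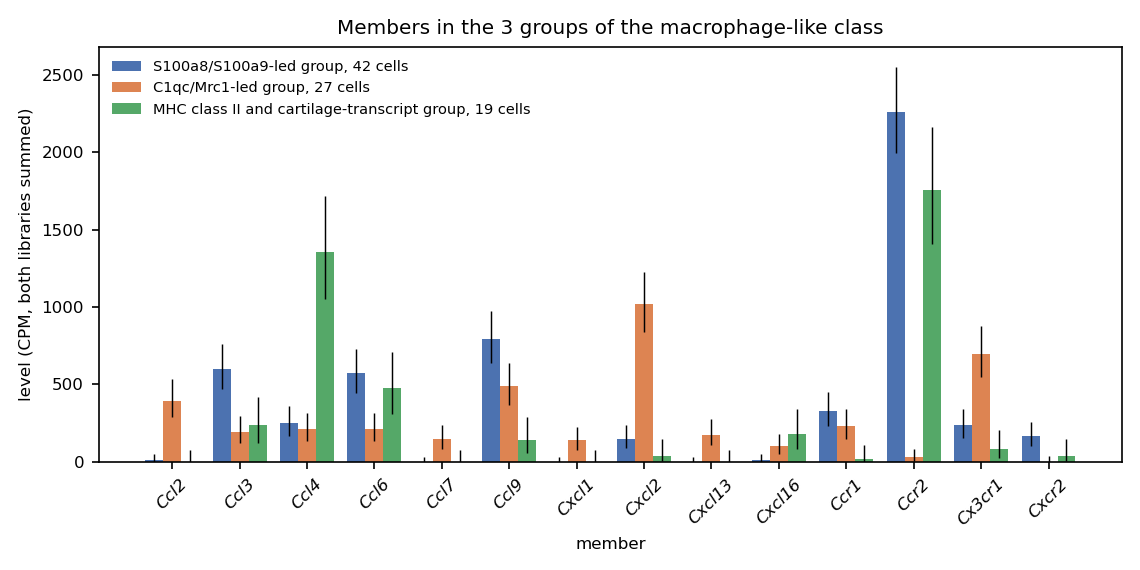
Levels in CPM of 14 members in the 3 groups of the macrophage-like class, both libraries summed, with 95% Poisson intervals as error bars. Ccr2 stands at 2261 CPM in the S100a8 and S100a9 group and 1755 CPM in the H2-Ab1 group, Cxcl2 at 1021 CPM in the C1qc group and Ccl4 at 1356 CPM in the H2-Ab1 group.

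In HSPC-like cells the main member ligands were Ccl3 and Ccl4, the inflammatory proteins MIP-1alpha and MIP-1beta. Ccl3 had 283 UMIs in WT and 243 in Bmx-CreER Wls, or 112 CPM (98.9 to 125) and 138 CPM (121 to 157). Ccl4 had 295 and 258 UMIs, or 116 CPM (103 to 130) and 147 CPM (129 to 166). Both came from a minority of cells: 49 of 386 WT and 37 of 255 Bmx-CreER Wls cells had a Ccl3 UMI, and 66 and 53 had a Ccl4 UMI. In chondrocyte-like cells Ccl3 was seen in 0 of 2359 WT and 1 of 4080 Bmx-CreER Wls cells, at median depths of 2859 and 2886.5 UMIs against 6276.5 and 6733 in HSPC-like cells. Of the cells with Ccl3, 26 in WT and 23 in Bmx-CreER Wls also had Ccl4.

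A group of 19 cells, 11 WT and 8 Bmx-CreER Wls, held 61.8% of the Ccl3 UMIs of the HSPC-like class. It was led by Nlrp3, Cd200r3, C3ar1, Il6 and Csf1 and had a median of 1446 UMIs per cell, the lowest of the 8 HSPC-like groups. All 19 cells had Ccl3, with a median of 14 UMIs per cell in each library and a range of 3 to 34 in WT and 4 to 50 in Bmx-CreER Wls. All 19 also had Ccl9 and Ccr2. In WT and Bmx-CreER Wls, Ccl9 stood at 3842 and 4199 CPM in this group, above its level in the osteoclast-like class. The Hnmt and Nrp1 group of that class had Ccl9 at 2570 and 3725 CPM. Ccr2 stood at 2250 and 1909 CPM in the 19 cells, above its level in the macrophage-like class as a whole. It was not above the S100a8 and S100a9 group of that class in both libraries, where Ccr2 stood at 2199 and 2285 CPM. The summed ligand level of the 19 cells was 21350.2 CPM in WT and 23440.5 CPM in Bmx-CreER Wls, above that of osteoclast-like cells of the same library. The ratio between the libraries was 1.10 (0.942 to 1.28). The basophil protease Mcpt8 had 48 UMIs in 8 of the 19 cells. With 30 principal components all 19 cells fell into a mast and basophil-like class, and with the chemokine genes kept for clustering 16 of them fell into the macrophage-like class, so the class of this group depended on the clustering. Without these 19 cells the summed ligand level of the HSPC-like class fell from 350 to 198 CPM in WT and from 457 to 284 CPM in Bmx-CreER Wls. The ratio of those sums between the libraries was 1.31 (1.18 to 1.44), 1.44 without the 19 cells, and 0.470 with each library clustered on its own, where the class held other cells.

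The other HSPC-like groups differed in their members as well. The group of 162 cells led by Hlf, Flt3 and Mecom, genes of stem and multipotent progenitor cells, had 209 Ccl4 UMIs in 55 cells but 45 Ccl3 UMIs in 13 cells. It held 88.6% of the Ccr9 UMIs of the class, in 18 cells. Ccr9, the receptor of Ccl25, guides progenitors to the thymus. All Ccl5 and Ccr7 UMIs of the class were in this group too, in 3 and 5 cells. The group led by Irf8, Prtn3 and Mpo, genes of granulocyte and monocyte progenitors, had Ccl3, Ccl4 and Ccl9 at 114, 108 and 101 UMIs, and 41.9% of the Cxcr2 UMIs of the class. The group led by the mast cell proteases Cma1 and Tpsb2 held 78.0% of the Cx3cr1 UMIs, 85 in 28 of 44 cells. Ccl17, a ligand of Ccr4, was mostly in the group led by Ermap and Car1, genes of the erythroid lineage, with 22 UMIs in 18 cells.

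**Figure D4:**
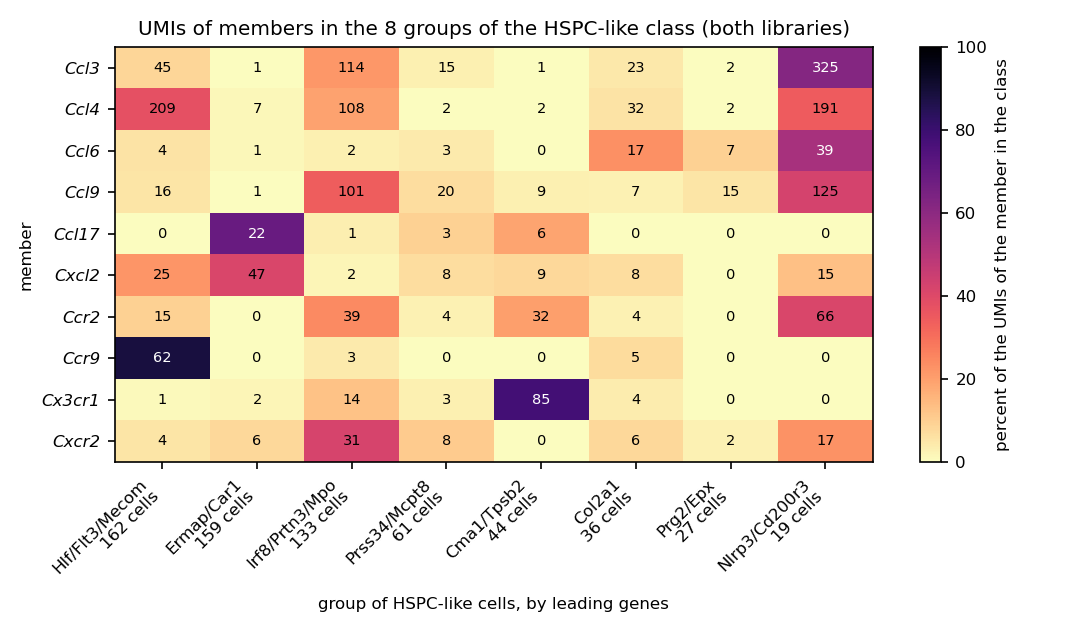
UMIs of 10 members (rows) in the 8 groups of the HSPC-like class (columns, by leading genes and number of cells), both libraries summed, with colour giving the percent of the member's UMIs in the class. Ccl3, Ccl9, Ccl6 and Ccr2 peak in the group of 19 cells led by Nlrp3 and Cd200r3, Ccr9 in the group led by Hlf, Flt3 and Mecom, and Cx3cr1 in the group led by Cma1 and Tpsb2.

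Endothelial-like cells carried ligands that are bound or presented at the vessel wall. Ccl21a, the lymphatic ligand of Ccr7, had 79 UMIs in WT and 73 in Bmx-CreER Wls, at 39.1 CPM (31.0 to 48.8) and 39.96 CPM (31.3 to 50.2), and was listed in no other class. All 152 UMIs came from 13 cells, 5 WT and 8 Bmx-CreER Wls, in a group led by Lyve1, Mmrn1, Reln and Prox1, which mark lymphatic endothelium. Every cell of that group had Ccl21a, with up to 35 UMIs in 1 WT cell and 20 in 1 Bmx-CreER Wls cell, and within the group the ratio between the libraries was 0.678 (0.487 to 0.944). The mouse genome holds near-identical Ccl21 copies, so the share of this copy is uncertain. Cx3cl1, the membrane-bound fractalkine, had 24 UMIs in 22 WT cells and 35 in 32 Bmx-CreER Wls cells, at 11.9 CPM (7.62 to 17.7) and 19.2 CPM (13.3 to 26.6). The arterial group, led by Gja5 and Gja4, held 33.9% of these UMIs, with 6 in WT and 14 in Bmx-CreER Wls, a ratio of 1.98 (0.715 to 6.29). Bmx-CreER is active in arterial cells. Wls had 9 UMIs in the WT cells of that group and 2 in those of Bmx-CreER Wls.

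Mural-like cells, the smooth muscle cells and pericytes of the vessel wall, had the highest levels of 2 attractants. The class also held a group of 40 cells led by glial genes, Sox10 among them, and one of 29 cells led by the muscle genes Actc1 and Myog. A further group of 30 cells was led by Mfap4, Thbs4, Dcn and Lum, which are not mural markers. Cxcl1 stood at 188 CPM (153 to 229) in WT and 146 CPM (118 to 180) in Bmx-CreER Wls, in 28 of 167 and 37 of 158 cells. The Mfap4 and Thbs4 group held 23 of the WT and 31 of the Bmx-CreER Wls Cxcl1 UMIs, at 457 and 380 CPM. In the group of 78 cells led by Steap4, Cxcl1 stood at 495 and 140 CPM, a ratio of 0.282 (0.146 to 0.513). In the other groups with enough UMIs its ratio lay between 0.683 and 1.21, with intervals that included 1. Ccl11, or eotaxin, the ligand of Ccr3, stood at 88.5 CPM (65.0 to 118) and 78.8 CPM (58.3 to 104), in 26 and 24 cells, and 85.5% and 94.2% of its UMIs in the library were in this class. Within the class, 46.9% of the Ccl11 UMIs were in the group of 44 cells led by Lrrc15 and Gstm1. In erythroid-like cells, which should lack both, neither library had a UMI of Cxcl1 or Ccl11, at median depths of 10011 and 10492.5 UMIs against 2934 and 3673 in mural-like cells.

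Cxcl14 was the main member ligand of stromal-like and unnamed cells. This ligand is widespread in connective tissue and skin. In the unnamed tendon-gene clusters it stood at 91.5 CPM (77.3 to 108) and 80.7 CPM (67.5 to 95.7). In stromal-like cells it stood at 77.3 CPM (68.2 to 87.4) in WT, on 258 UMIs in 127 cells, and at 31.8 CPM (25.1 to 39.8) in Bmx-CreER Wls, on 76 UMIs in 47 cells. The stromal-like cluster led by Mfap5, Igfbp6 and Pi16 held 199 of the 258 WT and 48 of the 76 Bmx-CreER Wls UMIs. That cluster made up 428 of 1104 stromal-like cells in WT but 146 of 776 in Bmx-CreER Wls. Within it the ratio was 0.634 (0.453 to 0.873), and in the 2 other stromal-like clusters with enough UMIs it was 0.357 (0.139 to 0.816) and 0.540 (0.290 to 0.978). The level was thus lower in Bmx-CreER Wls in each of the 3, but less so in the main one than in the class. Lower levels were not particular to stromal-like clusters. Among chondrocyte-like clusters the ratio ran from 0.186 (0.0629 to 0.502) in that led by Wif1 and Tnn to 1.03 (0.672 to 1.61) in that led by Serpina3n and Epyc.

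Other members of the skeletal classes were sparse. Cxcl13, the B cell attractant that binds Cxcr5, had 32 and 25 UMIs in stromal-like cells, of which 27 and 21 were in the cluster led by Hbegf and Clic5. Its 24 WT UMIs in unnamed cells came from 5 cells, 14 of them from 1, against 2 UMIs in Bmx-CreER Wls. In chondrocyte-like cells Cxcl1 had 57 UMIs in 29 of 2359 WT cells and 177 in 79 of 4080 Bmx-CreER Wls cells, at 7.0 CPM (5.30 to 9.07) and 13.0 CPM (11.1 to 15.0). The cluster led by Bpifb1 and Stc1, which also had Mmp3 and Lcn2 among its leading genes, had Cxcl1 at 25.1 CPM in WT and 65.8 CPM in Bmx-CreER Wls, a ratio of 2.63 (1.31 to 5.98). Cx3cl1 was detected in 33 WT and 52 Bmx-CreER Wls chondrocyte-like cells, at 4.17 and 3.81 CPM.

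Set side by side, ligands and their receptors were highest in the same class for some pairs and in different classes for others. Ccl9 and Ccr1 were both highest in osteoclast-like cells. Cx3cl1 was highest in endothelial-like cells, while Cx3cr1 was in macrophage-like and mast cell protease-positive HSPC-like cells and had no UMI in endothelial-like, mural-like or stromal-like cells of either library. Cxcl1 was highest in mural-like cells, where its receptor Cxcr2 had no UMI, and Cxcr2 was found in HSPC-like cells at 19.3 and 14.2 CPM and in macrophage-like cells at 25.3 and 116 CPM. Ccl11 was in mural-like cells and its receptor Ccr3 in osteoclast-like cells. Ccr9, found in HSPC-like cells, stood against Ccl25, which was spread thinly over 9 classes at 12.3 CPM or less. These are levels of transcripts in dissociated cells, and no contact between the cells was measured.

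Between the libraries, 65 pairs of a member and a class had at least 20 UMIs, over 27 genes. Of these, 6 were at least 2-fold higher in Bmx-CreER Wls, 6 at least 2-fold lower and 53 lay between. In macrophage-like cells, where 5.74% of the 2840 genes with enough UMIs were at least 2-fold higher and 5.67% at least 2-fold lower, 1 of 12 members was higher (Cxcr2, ratio 4.60, 1.34 to 24.4) and 1 lower (Ccl2, 0.287, 0.135 to 0.573), which is near the background. With chemokine genes kept for clustering the Cxcr2 ratio was 1.21, and as a mean over cells that of Ccl2 was 0.554. Ccl4 lay just inside the bound at 0.511 (0.347 to 0.746). The 18 Cxcr2 UMIs of the Bmx-CreER Wls cells stood against 3 in WT, and 90.5% of the 21 were in the group led by S100a8 and S100a9, to which Bmx-CreER Wls gave more cells.

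HSPC-like cells had the most members past 2-fold. There 4 of 17 members were higher in Bmx-CreER Wls and 1 was lower, against a background of 2.13% higher and 1.32% lower among 10142 genes. The higher ones were Ccl5 at 5.19 (1.86 to 17.9), Ccr9 at 2.95 (1.75 to 5.08), Ccr3 at 2.34 (0.900 to 6.52) and Cxcl2 at 2.21 (1.5 to 3.29), and the lower one was Ccr7 at 0.160 (0.0180 to 0.669). Few cells stood behind them. All 18 Bmx-CreER Wls UMIs of Ccl5 were from 1 cell, the 18 WT UMIs of Ccr7 from 3 cells, and 25 of the 45 WT Cxcl2 UMIs from 1 cell. Cxcl2 also went in opposite directions within the class. In the Hlf, Flt3 and Mecom group it had 25 UMIs in WT, all in that 1 cell, and 0 in Bmx-CreER Wls, and in the Ermap and Car1 group 6 UMIs in 4 WT cells and 41 in 11 Bmx-CreER Wls cells, a ratio of 9.93 (4.19 to 28.6). The 47 Bmx-CreER Wls UMIs of Ccr9 came from 12 cells, 16 of them from 1, and the 23 WT UMIs from 11 cells. With each library clustered on its own the ratio of Ccr9 was 1.72, and that of Cxcl2 was 1.14 there, 1.15 with chemokine genes kept for clustering and 1.96 without the group of 19 cells. The median ratio of the 17 members was 1.24, against 0.998 over all 10142 genes. Ccl3 at 1.24 (1.04 to 1.47) and Ccl4 at 1.26 (1.06 to 1.5) were within 2-fold. Within the Hlf, Flt3 and Mecom group Ccl4 had a ratio of 1.68 (1.27 to 2.22), within the Irf8, Prtn3 and Mpo group 2.40 (1.61 to 3.59), and within the group of 19 cells 0.960 (0.710 to 1.29). A group of 36 cells led by Col2a1 and other cartilage transcripts went the other way, with 31 Ccl4 UMIs in WT and 1 in Bmx-CreER Wls, a ratio of 0.0372 (0.000912 to 0.223), and with Ccl3 at 0.243 (0.0600 to 0.730).

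In osteoclast-like cells none of 4 members passed 2-fold, against a background of 4.70%. Ccl9 had a ratio of 1.23 (1.16 to 1.30) and Ccr1 of 0.833 (0.715 to 0.969). The ligand was thus higher and its receptor lower in Bmx-CreER Wls by more than the counting error of UMIs, which leaves out the spread between cells. For Ccl9, 1 Bmx-CreER Wls cell held 191 of the 2169 UMIs, and the median per cell was 13 UMIs in WT and 14 in Bmx-CreER Wls. In stromal-like cells (background of lower genes 1.61%) 2 of 7 members were lower, Cxcl14 at 0.411 (0.314 to 0.533) and Ccl27a at 0.349 (0.0849 to 1.08). Both moved inside 2-fold under other clusterings: Cxcl14 to 0.619 at resolution 0.5, 0.514 with 30 principal components and 0.588 with each library clustered on its own, and Ccl27a to between 0.575 and 0.868 under 5 alternatives. In endothelial-like cells (background of lower genes 1.73%) 1 of 6 was lower, Ccl2 at 0.354 (0.138 to 0.809), while Ccl21a had a ratio of 1.02 (0.733 to 1.42). In the unnamed clusters (background 2.92% higher and 1.96% lower) 1 of 5 was higher, Ccl2 at 3.12 (1.09 to 10.9), and 1 lower, Cxcl13 at 0.0813 (0.00931 to 0.327). That Ccl2 ratio rested on 5 UMIs in 3 WT cells and 16 UMIs in 4 Bmx-CreER Wls cells, 10 of them from 1 cell. The Ccl2 ratio was 1.41 in mural-like and 1.98 in stromal-like cells. The stromal-like value combined clusters that went both ways: the one led by Slc26a7 and Dpt had 19 UMIs in 3 WT cells and 9 in 5 Bmx-CreER Wls cells, a ratio of 0.528 (0.210 to 1.22), and the one led by Mfap5, Igfbp6 and Pi16 had 0 UMIs in WT and 18 in 6 Bmx-CreER Wls cells. None of 4 members passed in mural-like cells (background 6.12%), none of 9 in chondrocyte-like cells (background 3.77%) and not the only one measured in osteolineage-like cells (background 4.42%).

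**Figure D5:**
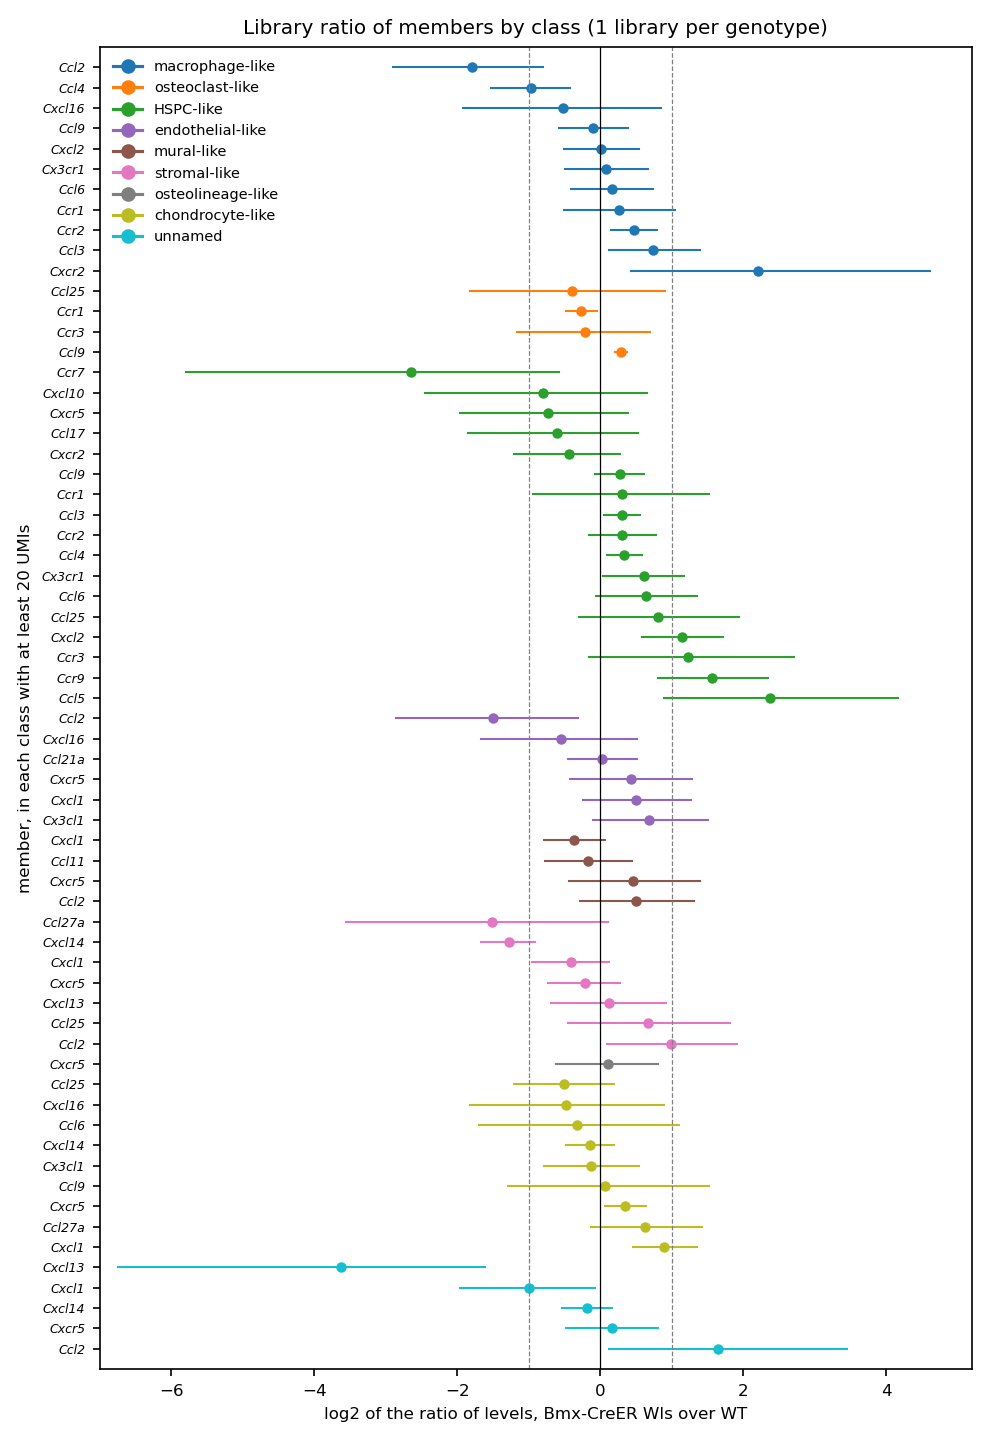
Ratio of the level in Bmx-CreER Wls to that in WT on a log2 axis, for 64 of the 65 pairs of a member and a class with at least 20 UMIs, with 95% conditional binomial intervals as bars and dashed lines at 2-fold. Most points lie between the dashed lines, 6 lie beyond the right one and 6 beyond the left, and the narrowest interval is that of Ccl9 in osteoclast-like cells.

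Genes of inflammation and of the response to dissociation, which can induce chemokines during collagenase digestion, also differed between the libraries. Their summed level over 18 genes was 11990.4 CPM in WT and 14692 CPM in Bmx-CreER Wls macrophage-like cells, 5896 and 6723 CPM in HSPC-like cells, 4446 and 5928 CPM in stromal-like cells and 7806 and 7761 CPM in chondrocyte-like cells. In macrophage-like cells Jun, Hspa1a and Hspa1b were higher in Bmx-CreER Wls, at ratios of 2.10, 4.21 and 4.24, and Ier3 was lower at 0.262. In HSPC-like cells Egr1 was higher at 2.10 and Il1b lower at 0.427. The part of this response in the chemokine levels was not tested.

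The other 22 genes of the pathway (atypical receptors, platelet chemokines, Cxcl12 and Cxcr4, Mif with Cd74, Dpp4 and signalling components) mostly lay within 2-fold. Against a background of 2.13% higher and 1.32% lower, 1 of 15 with enough UMIs was higher in HSPC-like cells and none lower. It was the platelet chemokine Pf4, with 29 UMIs in WT and 222 in Bmx-CreER Wls, a ratio of 11.04 (7.47 to 16.9), and 184 UMIs of the class came from 20 cells of the group led by Ermap and Car1. In macrophage-like cells 1 of 15 was higher (Mif, 3.26) and 1 lower (Rgs1, a brake on chemokine receptor signalling, 0.272). These counts were near the background there, 5.74% higher and 5.67% lower. Mif was also higher in mural-like cells at 2.12 and in stromal-like cells at 2.11, and was at 1.29 in chondrocyte-like cells. In mural-like cells 2 of 8 pathway genes were higher (background 6.12% either way). In stromal-like cells 2 of 13 were higher, for which no background of higher genes is given here. In chondrocyte-like cells 1 of 12 was lower (background 3.77% either way), and in the unnamed clusters 1 of 11 (background of lower genes 1.96%). The atypical receptor Ackr4, a scavenger of Ccl21 and Ccl25, was lower in endothelial-like cells at 0.414 (0.133 to 1.12). It was the only gene past 2-fold of 15 measured there (background of lower genes 1.73%). Cxcr4 lay between 1.06 and 1.596 in the 4 classes where it was measured, macrophage-like, osteoclast-like, HSPC-like and endothelial-like.

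Some members share their locus with another gene, and whether the counting used strand was not given in the sources used here. Cxcr5 on chromosome 9, 44511787 to 44561877 on GRCm38, runs over Bcl9l on the opposite strand. Cxcr5, a B cell receptor, had 151 and 322 UMIs in chondrocyte-like cells and was highest in mural-like cells at 33.9 and 46.6 CPM, where Bcl9l was also highest, at 169 and 164 CPM. Erythroid-like cells had the lowest Bcl9l level in both libraries, 2.53 and 7.41 CPM, and 1 and 0 UMIs of Cxcr5. Reads of Cxcr5 and Bcl9l cannot be told apart here. The same holds for Ccl27a, which overlaps Il11ra1, for Ccl25, which overlaps Elavl1, and for Cxcl16, which overlaps Zmynd15. Zmynd15 itself had only 1 UMI in the macrophage-like cells of each library, where Cxcl16 had 11 and 10. Cx3cr1 and Ccr9 also overlap several other genes in the annotation. Among them Csrnp1, on the same strand as Cx3cr1, was likewise highest in macrophage-like cells, at 446 CPM in WT and 264 CPM in Bmx-CreER Wls. Csrnp1 also had 82 and 72 UMIs in endothelial-like and 121 and 121 UMIs in stromal-like cells, where Cx3cr1 had none. The part of Csrnp1 reads in the Cx3cr1 counts was not tested.

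The 20 members below 30 UMIs were close to the limit of detection. Of these, 7 had 10 to 29 UMIs: Ccl5, Ccr7, Cxcl9, Cxcl15, Ccl28, Xcr1 and Cxcr6. The remaining 13 had 1 to 9 UMIs over both libraries, among them Ccl12 with 7 UMIs in 4 WT macrophage-like cells, Ccl22, and Ccr4, the receptor of Ccl17 and Ccl22, with 1 UMI. Cxcl5 and Cxcl11, together with Ccr4, were the members without a UMI in the Bmx-CreER Wls library. At this depth their absence from a class says only that the level was below that of about 3 UMIs, which corresponds to 25.3 CPM in WT macrophage-like cells and 1.18 CPM in WT HSPC-like cells.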

How the data were processed

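Single-cell libraries were prepared by the authors with the BD Rhapsody whole-transcriptome kit. Per the labels, reads were processed with bcl2fastq 2.19.1.403 and UMI-tools 1.0.1, aligned to mm10 with STAR 2.7.1a and assigned with featureCounts 1.6.4 (Subread), and the authors deposited the UMI counts of each gene in each barcode, not normalized. The gene annotation and the strand setting were not given in the sources used here. UMI counts come from 3′ ends and do not scale with transcript length.

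Barcodes had to hold over 200 genes, under 5000, and less than 30% mitochondrial UMIs (262 WT and 205 Bmx-CreER Wls barcodes removed, leaving 22266017 and 24385649 UMIs). Doublets were kept, because Scrublet called 39 and 0 cells. Both libraries were clustered together with scanpy 1.11.5 in Python 3.11.15 (scale factor 10000, 1993 variable genes without cell cycle, chemokine and receptor genes, 11 principal components, 20 neighbours, Leiden resolution 1, groups within classes at 0.5). A cluster was named where at least 3 markers of a list were detected and its leading genes did not go against the name. Intervals are exact Poisson (levels), Clopper-Pearson (shares) and conditional binomial (ratios), from scipy 1.17.1, and cover counting error only. The ratio intervals were tested on simulated Poisson counts, the model they assume, so that test says nothing about UMIs clumped in single cells. Members with at least 30 UMIs were named, except that 1 is counted but its values are not reported here, and ratios were computed where a class had at least 20 UMIs of a member. Genes outside the family but in the text are markers, leading genes of a group, overlapping genes or members of the pathway and response lists. The members, lists and alternatives were chosen with earlier results of these data known, and the groups within classes and the values within them were chosen after the data were seen. Promoters were taken from RefSeq on GRCm38.p6 and gene positions from GENCODE.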

Additional observations from a re-analysis of the deposited data

How the results depend on the processing

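No paired analysis was possible because each genotype has 1 library. Of 81 recomputed values for the summed levels, their ratio and the number of members measured, 56 moved by less than the counting interval and 25 moved by more. The summed ligand levels of HSPC-like cells were counted apart. In each library 4 of their recomputed values stayed within the counting interval and 6 did not. Of the levels of single members 405 stayed within it and 65 did not, and of the other ratios 144 and 21. Of the shares of cells with a UMI, each recomputed with cells thinned to 1000 UMIs, 20 stayed within it and 32 fell below it. In macrophage-like cells, the WT summed ligand level of 2846 CPM was 1932 CPM after dropping the top 5% by Scrublet score and 4768 CPM with chemokine genes kept for clustering, and the Bmx-CreER Wls level of 2618 CPM was 4213 CPM in the latter. Taken by group, WT ligands were 2549 CPM in the first, and Bmx-CreER Wls ligands 2333, 3314 and 1907 CPM in the 3 groups. Receptors were 3282 CPM in the first and 935 CPM in the second in WT, and 3170, 1186 and 2070 CPM in Bmx-CreER Wls. The ligand ratio of 0.920 between the libraries was 1.25 without the highest Scrublet scores, 1.08 within the second group and 0.689 within the last, so its side of 1 was not fixed. The receptor level of HSPC-like cells, 116 CPM in WT, was 79.8 CPM at resolution 0.5, 80.6 CPM with 30 principal components, 103 CPM without the highest Scrublet scores, 248 CPM as a mean over cells, 150 CPM with each library clustered on its own and 92.1 CPM without the group of 19 cells. In Bmx-CreER Wls, 145 CPM was 111, 94.7, 276 and 95.4 CPM at resolution 0.5, with 30 principal components, as a mean over cells and clustered on its own. The cause of these moves was not tested, other than that the alternatives hold other cells. Clustered on its own, the Bmx-CreER Wls library had no macrophage-like class, since the cluster was named mature neutrophil-like, so no macrophage-like value exists for it, and 11 of 26 named members kept their highest class. In the other settings 16 to 26 did. Ratios with fewer than 20 UMIs under an alternative were left out (17 in all). Depth limits the macrophage-like class most, where 39 and 49 cells held all counts.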
